A study of Mus musculus with 6 samples.

Results

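The epidermal growth factor (EGF)-like ligands Areg, Ereg, Btc, Hbegf and Tgfa and their receptor Egfr were described in RNA sequencing of cultured mouse granulosa cells. The 6 genes were taken by symbol from a deposited table of 30862 gene rows, and each symbol matched 1 row. They were chosen by symbol with the FPKM and count values of these libraries, and earlier results of the same comparison, in view. Their differences between groups are therefore given as a description, without a p-value. FPKM scales a fragment number by transcript length and by the depth of the library.

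Granulosa cells, the somatic cells around the oocyte, were isolated by enzyme digestion from the ovaries of ICR mice aged 21 days. All cells adhered for 12 h in multi-well plates. The 3 control libraries came from untreated wells (0 µg/mL), and the 3 PS-MP libraries from wells given sonicated polystyrene particles of 100 nm at 750 µg/mL for 24 h. The sample titles call the libraries of each group biological replicates. They do not say whether these came from separate cultures or animals, so the spread between them may be partly technical. Whether the particles altered granulosa cell gene expression was the question of the comparison.

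EGFR is a receptor tyrosine kinase at the cell surface. Its ligands are made as membrane-anchored precursors and are released by metalloproteases, ADAM17 above all for Areg, Ereg, Hbegf and Tgfa, and ADAM10 for Btc. Bound receptor signals through RAS and the kinases MEK and ERK. In the ovary the luteinizing hormone surge induces Areg, Ereg and Btc in the granulosa cells of the preovulatory follicle, and these ligands then drive expansion of the cumulus around the oocyte and resumption of meiosis.

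Ereg, Areg and Btc lie in one stretch of chromosome 5 in the deposited table (GRCm39). Ereg (ENSMUSG00000029377) spans 91222481 to 91241505 on the plus strand, Areg (ENSMUSG00000029378) 91287458 to 91296291 on the plus strand, and Btc (ENSMUSG00000082361) 91505120 to 91550853 on the minus strand. The gap from Ereg to Areg is 46.0 kb and that from Areg to Btc 209 kb. Tgfa (ENSMUSG00000029999) is on chromosome 6, 86172205 to 86252701, and Egfr (ENSMUSG00000020122) on chromosome 11, 16702203 to 16868158. In GENCODE M39 the opposite strand of other genes covers 16.3% of the exon bases of Hbegf, 3.89% of those of Ereg and 1.77% of those of Tgfa, and none (0%) of those of Areg, Btc and Egfr. The sources used here do not say whether counting used strand, so part of the Hbegf signal could belong to its neighbour.

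RefSeq promoter windows (build GRCm38.p6, 250 bases before to 50 after the annotated start) were held for 4 of the 6 genes, Areg, Btc, Tgfa and Egfr. Those of Areg and Btc are shown because these ligands had nearly the same pattern over the libraries, as given below. Each reads 5′ to 3′ on the strand of its gene; capitals mark the cAMP response element TGACGTCA and the TATA box TATAAA. The Areg window is chr5:91139349-91139648 on the plus strand and the Btc window chr5:91402945-91403244 on the minus strand.
Areg: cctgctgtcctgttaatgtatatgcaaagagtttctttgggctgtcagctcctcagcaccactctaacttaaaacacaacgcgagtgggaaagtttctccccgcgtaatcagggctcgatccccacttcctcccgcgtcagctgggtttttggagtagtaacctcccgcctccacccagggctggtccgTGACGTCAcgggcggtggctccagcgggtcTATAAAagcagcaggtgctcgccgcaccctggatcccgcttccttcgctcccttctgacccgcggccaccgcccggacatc
Btc: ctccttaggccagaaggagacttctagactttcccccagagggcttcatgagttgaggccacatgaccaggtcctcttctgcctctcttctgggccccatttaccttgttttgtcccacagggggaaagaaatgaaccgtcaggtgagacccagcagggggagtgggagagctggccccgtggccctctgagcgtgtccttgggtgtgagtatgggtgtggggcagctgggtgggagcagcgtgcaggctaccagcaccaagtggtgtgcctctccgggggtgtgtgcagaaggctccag
The Areg window held 1 full cAMP response element, from position -61 to -54 relative to the start, and 1 TATA box, from -31 to -26. The full element TGACGTCA, searched on both strands, was in 1.79% of 32851 promoter windows, and TATAAA, searched on the strand of the gene, in 8.32%. The half-site TGACG, searched on both strands, was found 3 times in Areg, of which the full element accounts for the pair at -61 and -58, and 1 time in Btc, at -113 to -109. It was in 20.8% of windows. Tgfa and Egfr held 0 matches to these motifs. The AP-1 motif TGANTCA, on both strands and in 7.81% of windows, had 0 matches in the 4 windows. A match is a description of the letters and not evidence of binding.

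Ereg, encoding epiregulin, was the most abundant member in every library. It stood at 85.5, 87.1 and 113 FPKM in control 1, 2 and 3 and at 80.9, 91.0 and 89.9 FPKM in PS-MP 1, 2 and 3. It made up 55.0% to 70.8% of the summed FPKM of the 5 ligands. Hbegf (ENSMUSG00000024486, chromosome 18, 36637980 to 36648858), heparin-binding EGF-like growth factor, stood at 25.2, 23.3 and 27.1 FPKM in control libraries and 26.2, 27.4 and 32.6 FPKM in PS-MP libraries. The receptor gene Egfr stood at 20.3, 18.2 and 15.6 FPKM in control libraries and 20.2, 17.9 and 14.9 FPKM in PS-MP libraries. All Hbegf values lay below all Ereg values and above all Egfr values.

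Areg, encoding amphiregulin, had no fixed place in this order. It stood at 8.97, 14.3 and 31.0 FPKM in control 1, 2 and 3 and at 10.7, 18.4 and 37.3 FPKM in PS-MP 1, 2 and 3. Its level was 0.443 times that of Egfr in control 1 and 0.527 times in PS-MP 1, but 1.99 times in control 3 and 2.50 times in PS-MP 3. In both libraries numbered 3 it was also above Hbegf, so its range overlapped those of Hbegf and Egfr.

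Btc and Tgfa were the least abundant members, in that order, in all 6 libraries. Btc, encoding betacellulin, stood at 0.622, 1.35 and 2.52 FPKM in control libraries and 0.825, 1.98 and 3.24 FPKM in PS-MP libraries. Tgfa, encoding transforming growth factor alpha, stood at 0.500, 0.216 and 0.353 FPKM in control libraries and 0.217, 0.203 and 0.302 FPKM in PS-MP libraries. The ranges of Btc and Tgfa did not overlap. Tgfa rested on 89 to 202 estimated counts per library and Btc on 175 to 1048, against 676 to 3240 for Areg and at least 7566 for the other members.

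**Figure D1:**
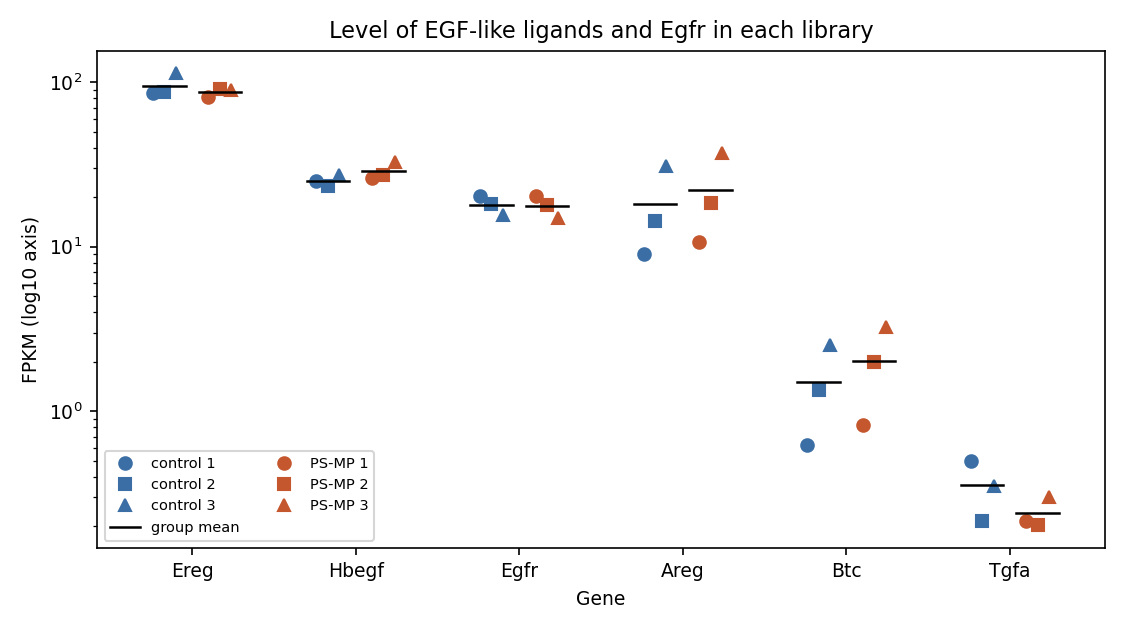
FPKM on a log10 axis for each member gene, with 1 point per library, colours for the group, symbols for the replicate number and black lines for group means (n = 3 each). Ereg stood above the other members in all 6 libraries, Tgfa was lowest in all 6, and Areg ran from below to above Egfr.

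The widest variation in Areg and Btc went with the replicate number and not with the group. Within control the highest library was 3.45-fold above the lowest for Areg and 4.05-fold for Btc. Within PS-MP the same folds were 3.50 and 3.93. In each group the library numbered 1 was lowest and the library numbered 3 highest, for both genes. On the log2 scale of CPM (counts scaled to library size), 96.6% of the variance of Areg and 93.7% of that of Btc went with the number. Treatment took 3.32% and 6.09%. The median over 13375 tested genes with a mean of at least 1 CPM was 66.4% for the number and 6.45% for treatment. The log2 range over the 6 libraries was 2.04 for Areg and 2.35 for Btc, against a median of 0.41 for those genes. Areg, Btc and Tgfa were the 3 members with a range of at least 1, which 11.9% of those genes reached.

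Egfr ran the other way over a narrow range. Its level was highest in the libraries numbered 1 and lowest in those numbered 3, with a 1.30-fold span in control and 1.36-fold in PS-MP libraries, and the number took 97.8% of its variance. Over the 6 libraries log2 CPM of Areg had a Pearson r of 0.98 with Btc and -0.99 with Egfr. These are descriptions of 6 libraries that share 3 replicate numbers. Ereg, although next to Areg on the chromosome, had a span of 1.32-fold in control and 1.12-fold in PS-MP libraries (r = 0.66 with Areg). Hbegf spanned 1.16-fold and 1.24-fold (r = 0.75 with Areg). Tgfa had an r of -0.05 with Areg, and its highest library was control 1.

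The mix of ligand transcripts differed between libraries. Areg made up 7.42% of the summed ligand FPKM in control 1, 17.8% in control 3, 8.97% in PS-MP 1 and 22.8% in PS-MP 3. Ereg was 9.53 times the level of Areg in control 1 and 2.41 times in PS-MP 3. The ratio of Areg to Btc stayed between 9.31 and 14.4 in all libraries.

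**Figure D2:**
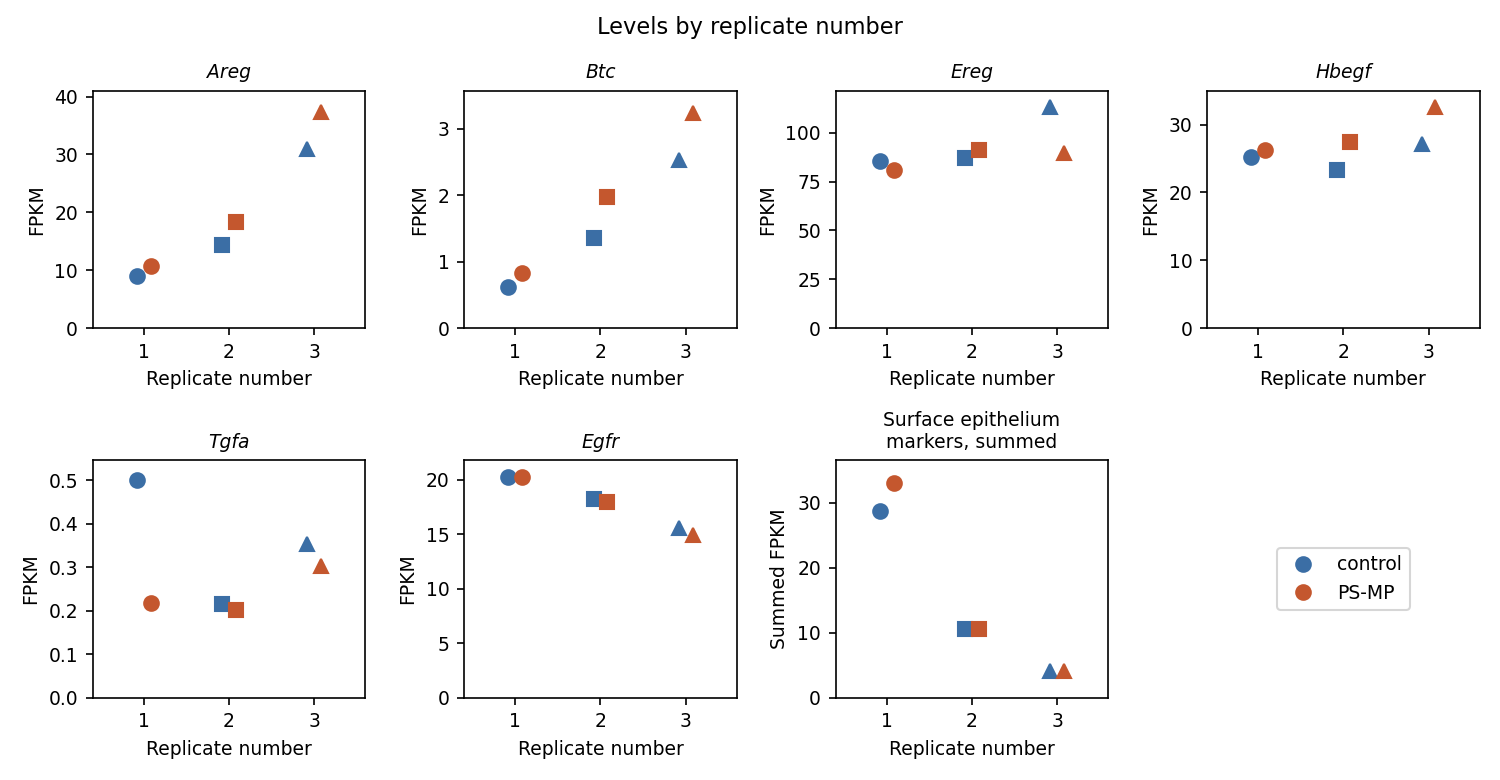
FPKM of each member, and the summed FPKM of 10 surface epithelium markers, by replicate number, with 1 point per library and colours for the group; the vertical axes start at 0. Areg and Btc were lowest in the libraries numbered 1 and highest in those numbered 3 in both groups, whereas Egfr and the summed epithelial markers were highest in those numbered 1.

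Cell type markers differed between the numbers as well. The summed level of 10 ovarian surface epithelium markers was 28.8, 10.6 and 4.14 FPKM in control 1, 2 and 3 and 33.0, 10.5 and 4.17 FPKM in PS-MP 1, 2 and 3. Krt18, an epithelial keratin, led this list at 11.0, 4.61 and 1.51 FPKM in control libraries and 12.4, 3.47 and 1.23 FPKM in PS-MP libraries. Upk1b, a uroplakin of the surface layer, followed at 8.53, 3.39 and 1.28 FPKM in control libraries and 9.77, 3.76 and 1.89 FPKM in PS-MP libraries. Of the 10 markers, Cdh1, Upk3b, Lrrn4 and Muc16 were at 0 in at least 1 library. The summed level of 8 pericyte and smooth muscle markers, led by Acta2 and Cnn1, was 1858 to 2516 FPKM in control libraries and 1679 to 2542 FPKM in PS-MP libraries, and was lowest in the libraries numbered 3. Acta2 made up most of it, at 2064, 1938 and 1550 FPKM in control libraries and 2130, 1885 and 1406 FPKM in PS-MP libraries. Cnn1, Myh11, Des and, by little, Mcam were also lowest in the libraries numbered 3. Cspg4 and Rgs5 were highest there, and Lmod1 was lowest in the libraries numbered 1. The summed level of 7 stroma and theca markers, led by Col1a1 and Pdgfra, was 996, 671 and 489.7 FPKM in control 1, 2 and 3 and 814, 631 and 498.5 FPKM in PS-MP 1, 2 and 3. These sums too were highest in the libraries numbered 1 and lowest in those numbered 3 in both groups, the reverse of Areg and Btc. Col1a1 made up most of them, at 968.3, 644.5 and 459.5 FPKM in control libraries and 783.0, 600.7 and 469.3 FPKM in PS-MP libraries. Star and Lum also fell from number 1 to number 3. Pdgfra stayed between 13.8 and 15.3 FPKM. Dcn (decorin) rose as Areg did, at 6.72, 8.36 and 12.4 FPKM in control libraries and 8.68, 10.7 and 11.5 FPKM in PS-MP libraries. Cyp17a1 was at 0 in some libraries. The part of these cells in the Areg, Btc and Egfr pattern was not tested. In bulk RNA a lower share of one cell type and less RNA per cell cannot be told apart.

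The labelled cell type was weakly marked in both groups. Foxl2, a transcription factor of the granulosa lineage, stayed at or below 0.204 FPKM, and 5 of 9 measured granulosa markers stayed under 0.3 FPKM in every library. Inhba, an inhibin and activin subunit, and Gja1, a gap junction protein, were the highest of the list at 122 ± 20.9 and 10.2 ± 0.984 FPKM in control (SD, n = 3), and Hsd17b1, Amhr2 and Nr5a1 were at 0 in some libraries. Endothelial markers, led by Kdr and Pecam1, summed to at most 0.401 FPKM, with Tek, Cdh5, Cldn5 and Emcn at 0 in some libraries. Leukocyte markers, led by Cd68 and Lyz2, summed to at most 4.40 FPKM, with Ptprc, Itgam and Cd3e at 0 in some libraries. The 3 measured oocyte markers, led by Gdf9, summed to at most 0.432 FPKM, with Ddx4 and Bmp15 at 0 in some libraries. Library totals ran from 56967176 to 70240738 estimated counts.

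Between PS-MP and control, no member was called changed. All 6 passed the filter on low counts, 0 of 6 had an adjusted p under 0.05 with at least 1.5-fold change (edgeR's quasi-likelihood test), and the background was 0% of 17186 genes tested. DESeq2 and limma-voom called 0 of 6 as well, with backgrounds of 0.00582% and 0%. In 0 of 6 members did the FPKM values of the groups separate, against 6.45% of genes tested.

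Areg had a mean of 18.1 ± 11.5 FPKM without and 22.1 ± 13.7 FPKM with PS-MP (± SD over 3 libraries, here and below), a log2 fold change of 0.28 ± 0.55 (SE, 95% interval -1.02 to 1.58). Btc averaged 1.50 ± 0.958 and 2.01 ± 1.21 FPKM, with a log2 fold change of 0.41 ± 0.59 (-0.98 to 1.81). In both genes the groups overlapped and the spread within a group exceeded the difference. In this fit, which has treatment alone in the model, the sign depended on single libraries. Leaving out 1 library also leaves the replicate numbers unbalanced between the groups. The Areg estimate was -0.05 without control 1 and -0.33 without PS-MP 3, and that of Btc was -0.11 without PS-MP 3. At the other end, they were 0.89 and 0.99 without control 3 and 0.61 and 0.79 without PS-MP 1. With the replicate number in the model and 1 pair left out, they ran from 0.25 to 0.30 for Areg and from 0.37 to 0.45 for Btc.

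Same-numbered libraries were closer to each other than to their own group for Areg and Btc. This did not hold for Hbegf, where control 2 (23.3 FPKM) was closer to control 1 (25.2 FPKM) than to PS-MP 2 (27.4 FPKM). The difference in log2 CPM between PS-MP and control within pairs 1, 2 and 3 was 0.22, 0.33 and 0.27 for Areg and 0.37, 0.52 and 0.36 for Btc. For Hbegf it was 0.03, 0.20 and 0.26. Areg, Btc and Hbegf were the 3 members higher with PS-MP in every pair, Hbegf by only 0.03 in pair 1. The share of all genes tested that were higher in every pair was not computed, so this count has no background. With the replicate number as a block the log2 fold change was 0.27 ± 0.07 (SE, 95% interval 0.11 to 0.44) for Areg, 0.42 ± 0.10 (0.18 to 0.65) for Btc and 0.16 ± 0.06 (0.03 to 0.30) for Hbegf. These intervals are not adjusted for the number of genes. They left out 0 for 3 of 6 members, and 4.94% of genes tested had an unadjusted p under 0.05 in that fit. The members were chosen with these values in view, so that count beside that share is a description and not a test. The blocked fit called 0 of 6 members, with a background of 0.00582%, which is 1 gene row, Snhg4, named after its value was seen.

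Some cell type markers had an unadjusted p under 0.05 in the blocked edgeR fit, although none was called. Of the 8 pericyte and smooth muscle markers, 7 had an estimate below 0 without the block, with a median log2 fold change of -0.18. Lmod1, encoding the actin-binding protein leiomodin 1, stood at 30.7, 35.2 and 33.2 FPKM in control libraries and 26.9, 29.0 and 27.4 FPKM in PS-MP libraries, so that its groups did not overlap. With the block its log2 fold change was -0.27 ± 0.05 (SE), and it was -0.22 ± 0.05 for Myh11 (smooth muscle myosin), -0.21 ± 0.04 for Des (desmin) and -0.17 ± 0.04 for Cnn1 (calponin 1). The rest of this list did not reach that level: Acta2 was at -0.06 ± 0.04, Mcam -0.04 ± 0.05, Cspg4 -0.01 ± 0.09 and Rgs5 -0.35 ± 0.37. The other markers with an unadjusted p under 0.05 in that fit were Fst (follistatin) of the granulosa list, at -0.18 ± 0.07, and Star (which carries cholesterol into mitochondria) and Lum (lumican) of the stroma and theca list, at 0.34 ± 0.08 and 0.82 ± 0.35. These are 7 of 35 tested genes in 7 marker lists, against the background of 4.94%, and each had an adjusted p of 0.884 (edgeR with Benjamini-Hochberg adjustment). None was called (0 of 35 by edgeR without or with the block, DESeq2 or limma-voom), and 2, Lmod1 and Amh (anti-Müllerian hormone), had an unadjusted p under 0.05 without the block. The part of these cells in the within-pair differences of Areg, Btc and Hbegf was not tested.

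Hbegf had a mean of 25.2 ± 1.91 FPKM without and 28.7 ± 3.37 FPKM with PS-MP, a log2 fold change of 0.17 ± 0.10 without the block (-0.07 to 0.40). Without PS-MP 3 it was 0.07. Ereg averaged 95.3 ± 15.5 and 87.3 ± 5.52 FPKM, a log2 fold change of -0.14 ± 0.12 (-0.42 to 0.13). Its control 3 library was the highest of all 6, and the estimate was -0.02 without it. Pair differences of Ereg were -0.11, 0.03 and -0.33.

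Tgfa had a mean of 0.356 ± 0.142 FPKM without and 0.240 ± 0.0537 FPKM with PS-MP, a log2 fold change of -0.58 ± 0.34 (-1.37 to 0.21). Pair 1 differed by -1.22, pairs 2 and 3 by -0.13 and -0.22. Without control 1 the estimate was -0.26. Egfr averaged 18.0 ± 2.34 and 17.7 ± 2.66 FPKM, a log2 fold change of -0.05 ± 0.14 (-0.37 to 0.28), with pair differences of -0.03, -0.05 and -0.06. The estimate for Egfr was 0.04 without control 1 and 0.06 without PS-MP 3.

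**Figure D3:**
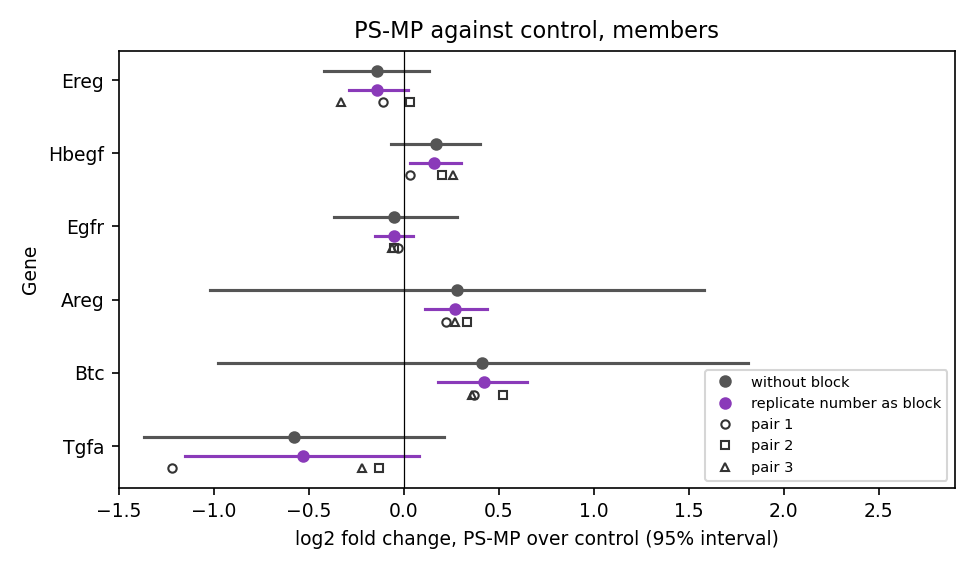
Log2 fold change of PS-MP over control for each member, with 95% intervals from edgeR without and with the replicate number as a block, and open symbols for the log2 CPM difference within each pair. The intervals of Areg and Btc are wide without the block (-1.02 to 1.58 and -0.98 to 1.81) and narrow with it (0.11 to 0.44 and 0.18 to 0.65).

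Genes around the receptor were compared in 6 lists with 75 symbols, of which 73 had a row and 70 gene rows were tested. None was called (0 of 70 by edgeR's quasi-likelihood test without or with the block, DESeq2 or limma-voom), and 0 had an unadjusted p under 0.05 without the block, against a background of 1.32%. Of the 70 estimates, 27 lay above 0 and 43 below. Over all genes tested 50.0% were positive and the median was 0.00.

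Other ligands and receptors of the family were low, apart from Erbb2. Erbb2, the partner receptor that binds no EGF-like ligand itself, had a mean of 6.94 ± 0.930 FPKM without and 6.43 ± 0.344 FPKM with PS-MP (log2 fold change -0.13 ± 0.12, SE). Nrg1, a neuregulin, which binds other ERBB receptors, averaged 0.663 ± 0.179 and 0.707 ± 0.148 FPKM. A second row with the symbol Nrg1 did not exceed 0.106 FPKM and was not tested. Epgn, epigen, an EGFR ligand next to Ereg on chromosome 5, averaged 0.329 ± 0.178 and 0.328 ± 0.0934 FPKM. Egf itself did not exceed 0.0531 FPKM, Erbb3 0.238 FPKM and Erbb4 0.00514 FPKM. The median log2 fold change of the 7 tested genes was -0.13, with 2 positive and 5 negative.

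Genes of ligand release were expressed in every library. Adam17, the main sheddase of Areg, Ereg, Hbegf and Tgfa, ranged from 8.97 to 10.1 FPKM over the 6 libraries. Adam10, the sheddase of Btc, ranged from 24.2 to 30.8 FPKM. Adam9 was the most abundant of the list (125 ± 13.4 and 123 ± 22.8 FPKM), followed by Adam19 (76.7 ± 9.06 and 74.7 ± 7.03 FPKM) and Timp3, an inhibitor of ADAM17 (49.5 ± 12.4 and 50.4 ± 9.28 FPKM). Timp3 was highest in the libraries numbered 1, at 63.4 and 60.1 FPKM in control 1 and PS-MP 1, against 40.0 and 41.5 FPKM in control 3 and PS-MP 3. The 9 tested genes had a median log2 fold change of -0.02 (4 positive, 5 negative).

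Adaptors and the ERK cascade varied little. Map2k1, encoding the kinase MEK1, averaged 79.2 ± 4.22 and 81.1 ± 1.08 FPKM, Mapk3, encoding ERK1, 76.2 ± 7.76 and 80.4 ± 11.4 FPKM, and Shc1, an adaptor, 46.2 ± 3.04 and 47.0 ± 2.53 FPKM. Log2 fold changes of the 16 tested genes ran from -0.16 to 0.12 (median -0.02, 5 positive). Negative regulators had the same median over 18 tested genes (7 positive), between -0.13 and 0.08. Errfi1, which binds and inhibits EGFR, led them at 160 ± 10.3 and 162 ± 12.3 FPKM, followed by the ERK phosphatase genes Dusp4 (75.6 ± 2.01 and 77.9 ± 5.75 FPKM) and Dusp5 (53.5 ± 4.12 and 57.4 ± 3.85 FPKM).

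ERK-responsive genes had a median of 0.03 (8 of 15 positive). Ier3, an immediate early gene, averaged 285 ± 31.9 and 278 ± 22.5 FPKM, and Phlda1 100.3 ± 10.6 and 95.2 ± 4.44 FPKM. Ccnd1, cyclin D1, averaged 186 ± 79.8 and 206 ± 93.0 FPKM and, like Areg, was lowest in the libraries numbered 1 and highest in those numbered 3. It stood at 100.2, 199 and 258 FPKM in control libraries and 110.1, 213 and 296 FPKM in PS-MP libraries, and 98.7% of its variance went with the number. With the block the unadjusted p was under 0.05 for 6 of 70 genes in these 6 lists, Nras, Fosb, Egr1, Ccnd1, Ptx3 and Ptgs2, against a background of 4.94%, and the adjusted p of each was 0.884 (edgeR with Benjamini-Hochberg adjustment).

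Genes that act up- or downstream of these ligands in the ovary were tested for 5 of 7 measured members (median log2 fold change -0.20, 1 positive). Ptgs2, cyclooxygenase-2, had a mean of 484 ± 57.8 FPKM without and 428 ± 19.3 FPKM with PS-MP (log2 fold change -0.20 ± 0.09, SE, 95% interval -0.41 to 0.02). Has2, which makes the hyaluronan of the expanding cumulus, averaged 42.2 ± 9.89 and 40.6 ± 11.6 FPKM, and Npr2, the receptor of C-type natriuretic peptide, 10.4 ± 3.06 and 11.3 ± 3.68 FPKM. Pgr, the progesterone receptor, did not exceed 0.0271 FPKM and was not tested, nor was Nppc.

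**Figure D4:**
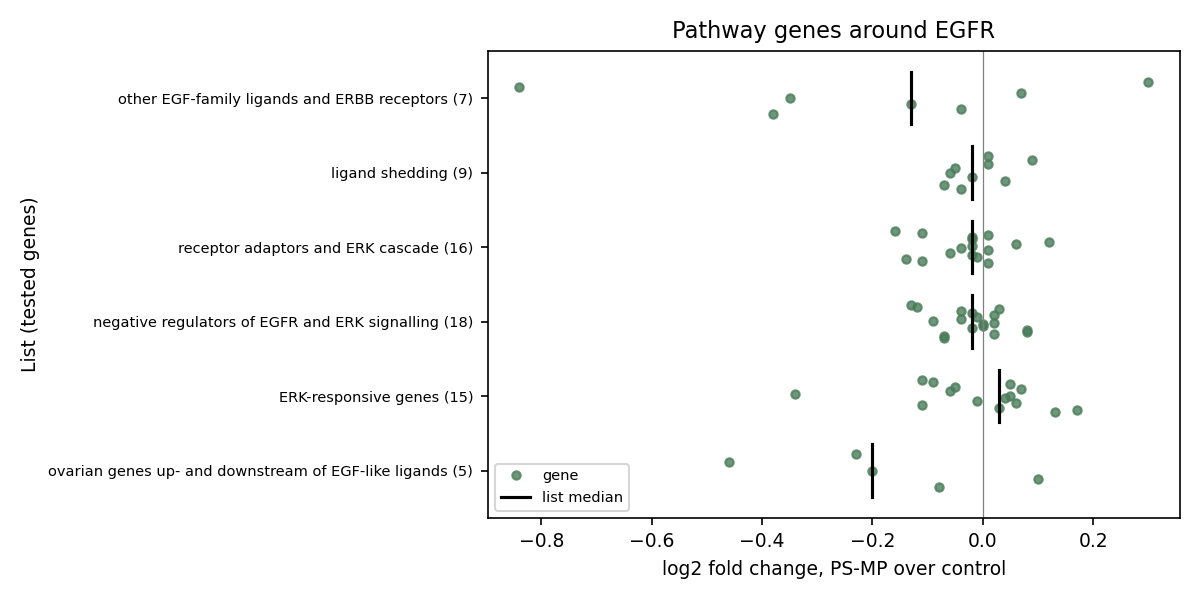
Log2 fold change of PS-MP over control for the tested genes of 6 lists around EGFR, with 1 point per gene and a black line for each list median. Medians run from -0.20 to 0.03, and none of the 70 genes (0) was called changed.

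Genes with a pattern like that of a member were sought by Pearson r of log2 CPM over the 6 libraries, for the 3 members and among 1268 genes with a log2 range of at least 1. Nearest to Areg were Lingo1 (r = 0.998), Prl2c2 (0.996) and Fgf2os (0.995). Lingo1 stood at 2.24, 2.85 and 4.51 FPKM in control libraries and 2.57, 3.32 and 5.09 FPKM in PS-MP libraries. Prl2c2, a proliferin, has near-identical copies and Fgf2os is an antisense gene, so their levels are uncertain. Nearest to Btc were Rnf207 (0.999), Tmem140 (0.998) and Add2 (0.998). An r of at least 0.95 was reached by 154 of these genes for Areg (12.1%) and 234 for Btc (18.5%), so such likeness was common. For Tgfa 0 genes reached it, and the nearest were Clcn1 (0.867), Pdf (0.844) and Pms1 (0.825).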

How the data were processed

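RNA was sequenced in 3 control and 3 PS-MP libraries. Per the submitters' processing notes, the authors trimmed reads with cutadapt 1.9, checked them with FastQC, aligned them to GRCm39 with HISAT2 2.2.1 and quantified them with StringTie 2.1.6. The deposited table gives FPKM and a count per gene, per the file headers. The deposited counts pile up at 4 (6687 values of 4, 3161 of 3 and 2040 of 5) and were treated as estimated counts. They are whole, so rounding changed none. The table also holds 12 columns of values for 6 further libraries, whose names could likewise be read as control and PS-MP replicates. The columns used here were matched to the samples by the group letter and number in their names; nothing in the sources used here says which set belongs to these samples, so every value here rests on that match. The 12 columns were not used.

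Genes were tested with edgeR 4.0.16 in R 4.3.3 (two-sided quasi-likelihood test with treatment alone in the model, TMM factors, low counts removed by filterByExpr), with Benjamini-Hochberg adjustment over 17186 genes. A called gene had to reach 1.5-fold and an adjusted p under 0.05. That fit also gave the standard errors and intervals. Log2 CPM used TMM scaling and a prior count of 2. Alternatives were DESeq2 1.42.0, limma 3.58.1 (voom, and trend on log2(FPKM + 0.1)), other filters and scalings, counts divided by 4, libraries left out and the replicate number as a block. Estimated counts carry no exact counting interval, so precision is given by the spread between libraries.

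Members and lists were chosen with earlier results of these data known. Named genes are the members, the 3 most abundant tested genes of each pathway list, the 2 most abundant of each marker list with those at 0, and the 3 genes most like each member with a log2 range of at least 1 (predicted genes left out). Adam17, Adam10, Egf, Erbb3, Erbb4, Pgr, Nppc, Foxl2, Dcn, Mcam, Cspg4, Rgs5, Ptprc, Itgam, Cd3e and listed genes with an unadjusted p under 0.05 were named after their values were seen. Listed genes without a row were not analysed here.

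Replicate numbers are shared between groups. Deviations from group means over 9323 genes above 10 CPM correlated at 0.81, 0.15 and 0.62 between the libraries numbered 1, 2 and 3. The unlike-numbered combinations of control 3 and PS-MP 2 (0.38) and of control 2 and PS-MP 3 (0.17) were above the value for number 2. These correlations thus do not single out the pair numbered 2. A chi-square per degree of freedom between the counts of 2 libraries, lower when closer, was 19.7, 14.5 and 46.8 for numbers 1, 2 and 3. By that measure control 2 and PS-MP 2 were the closest libraries of all. Control 3 was closer to PS-MP 2 (26.9) and to control 2 (34.5) than to PS-MP 3. The chi-square thus does not single out the pair numbered 3. The numbers were treated as pairs in the pair differences and the blocked fits, and not in the main test.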

Additional observations from a re-analysis of the deposited data

How the results depend on the processing

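Without the block 0 genes were called, and 226 had an unadjusted p under 0.05. Other filters, RLE scaling, counts divided by 4, limma-trend on FPKM and limma-voom also called 0. DESeq2 called 1, the fit with the replicate block 1 and DESeq2 with the replicate block, chosen after seeing the data, 4. Without 1 library the count ran from 0 to 1, and with the replicate block it was 1 without pair 1, 15 without pair 2 and 9 without pair 3. None of these settings called a member (0) or a gene of the 6 lists (0). The cause of these differences was not tested.

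For each member the estimate moved by less than 1 SD of its libraries within groups under every setting that could be run. That SD holds the spread between replicate numbers, so this limit was wide for Areg and Btc. The estimate changed sign in 2 settings for Areg, 1 for Btc and 2 for Egfr. Without 1 library it ran from -0.33 to 0.89 for Areg, -0.11 to 0.99 for Btc, -0.15 to 0.06 for Egfr, -0.22 to -0.02 for Ereg, 0.07 to 0.24 for Hbegf and -0.83 to -0.26 for Tgfa. With the replicate block and 1 pair left out it ran from 0.25 to 0.30 for Areg, 0.37 to 0.45 for Btc, -0.06 to -0.04 for Egfr, -0.22 to -0.04 for Ereg, 0.11 to 0.23 for Hbegf and -0.73 to -0.18 for Tgfa. The block changed no call for a member or a listed gene. Btc and Tgfa averaged under the stricter minimum of 10 CPM over the 6 libraries and gave no value there. The standard error was largest for Btc (0.59) and Areg (0.55) without the block and for Tgfa (0.27) with it.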
